A study of Homo sapiens with 24 samples.

Results

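The 46 genes described here carry glucose into the cell, run glycolysis, lactate export and the pentose phosphate pathway, and sense or answer low oxygen. They were chosen by symbol from the 58825 genes of the deposited count table. All 46 symbols were found. The cells were SKHEP1, a human liver tumour line, made into stable CRISPR interference (CRISPRi) lines, in which a guide RNA directs a repressor to a promoter. There were 4 lines with guides against the long noncoding RNA PURPL (sg2, sg4, sg5 and sg6) and 2 lines with non-targeting guides (NTC1 and NTC2). Each line received 10 µM Nutlin-3a, a blocker of MDM2 that activates p53, or the vehicle DMSO for 6 h, and there were 2 replicates, numbered 1 and 3, in each of the 12 groups. Each line stands for 1 guide, and the CRISPRi background was shared by all groups, so that no parental cells enter any comparison.

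Glycolysis turns glucose into pyruvate in the cytosol. Hexokinases trap glucose, and phosphofructokinase commits it under the control of the PFKFB enzymes. Lactate dehydrogenase and monocarboxylate transporters dispose of the end product. Pyruvate dehydrogenase kinases (PDK) restrain pyruvate dehydrogenase, which uses pyruvate in the mitochondria. The pentose phosphate pathway branches off for NADPH and the sugar of nucleotides. Many of these genes are known targets of the hypoxia-inducible factors (HIF1A or EPAS1 paired with ARNT), which the prolyl hydroxylases EGLN1 and EGLN3 mark for destruction when oxygen is present. HIF binds DNA at a core written as ACGTG or GCGTG. p53 is known to act on this network through targets such as TIGAR.

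Levels are given as counts per 1e6 of the library's TMM-scaled size (CPM), so that 1 CPM stood for 66.5 to 90.9 counts, depending on the library. PURPL had 1.39, 1.89 and 2.92 CPM (lowest, median, highest) in guide lines with Nutlin-3a, against 29.7 to 38.0 CPM in NTC lines with Nutlin-3a, and 0.276, 0.534 and 0.868 CPM in guide lines with DMSO, against 7.53 to 10.2 CPM in NTC lines with DMSO. CDKN1A, the p53-induced cell cycle inhibitor, reached 933 to 1552 CPM in Nutlin-3a libraries, against 71.9 to 112 CPM in DMSO libraries. The labels call the cells endothelial, but 15 of 18 endothelial markers stayed under 1 CPM in every library. Among them were PECAM1 (highest 0.0277 CPM) and CDH5 (highest 0.0593 CPM). The exceptions were ENG (20.4 to 51.8 CPM), ROBO4 (1.62 to 4.62 CPM) and EGFL7 (0.305 to 1.6 CPM). Also under 1 CPM in every library were 10 of 12 hepatocyte, 3 of 9 mesenchymal, 3 of 7 epithelial and 6 of 7 leukocyte markers. The mesenchymal gene VIM had 3565 to 4608 CPM, and the epithelial genes KRT8 and KRT18 had 447 to 974 and 923 to 1714 CPM. The summed endothelial markers ranged over 25.9 to 59.4 CPM in guide lines with Nutlin-3a, 24.9 to 34.3 CPM in guide lines with DMSO, 24.2 to 30.1 CPM in NTC lines with Nutlin-3a and 23.9 to 45.1 CPM in NTC lines with DMSO. With Nutlin-3a, 2 of 11 tested endothelial, 1 of 2 hepatocyte, 1 of 9 mesenchymal, 2 of 5 epithelial and 1 of 2 leukocyte markers rose in the guide lines. There 1 of 5 epithelial markers fell, where 15.9% of all genes tested rose and 22.7% fell. In the NTC lines 1 of 11 endothelial and 1 of 9 mesenchymal markers fell, where 8.88% of all genes tested rose and 15.9% fell. The part of these markers in the results was not tested.

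The library labelled sg2 Nutlin-3a replicate 1 stood apart. Per 10 points of transcript GC content, the log2 level of its genes relative to the other libraries climbed by 1.45, where the other 23 libraries had slopes of -0.204 to 0.325. It was left out of the fits below, which therefore rest on 7 guide-line libraries with Nutlin-3a, 8 guide-line libraries with DMSO and 4 NTC libraries for each treatment. Values with all 24 libraries are given where they end a call. The next largest slopes were 0.325 in sg5 Nutlin-3a replicate 3 and 0.29 in NTC1 DMSO replicate 3, and these libraries recur in the results.

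**Figure D1:**
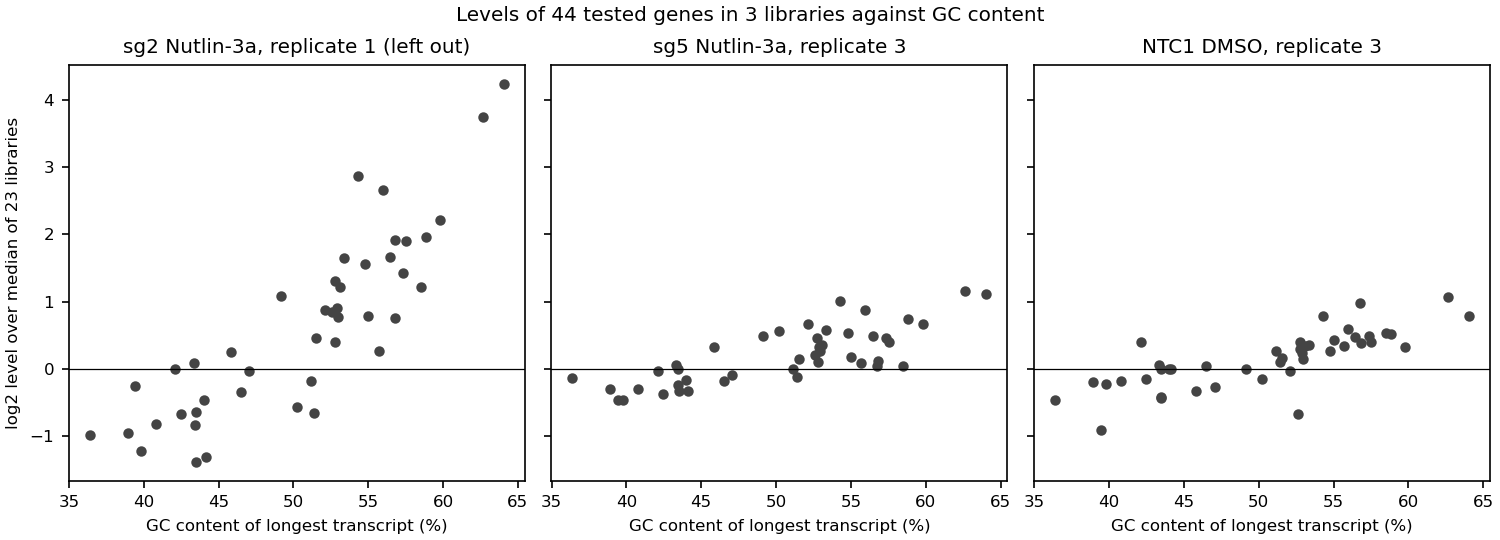
Level of each of the 44 tested genes in 3 libraries, as log2 of its CPM over its median of the 23 fitted libraries (vertical axis), against the GC content of its longest transcript in percent (horizontal axis). In the left panel, sg2 Nutlin-3a replicate 1, the 13 genes over 55% GC have a median of 1.90 and the 13 under 45% a median of -0.82; in sg5 Nutlin-3a replicate 3 these medians are 0.46 and -0.31, and in NTC1 DMSO replicate 3 they are 0.49 and -0.18.

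To show what DNA lies upstream of these genes, RefSeq promoters (GRCh38.p14, 250 bases before to 50 bases after the start) were searched for ACGTG and GCGTG on both strands. Entries were matched for 41 of the 46 genes. ACGTG was present in 15 of the 41 promoters (36.6%), against 21.4% of all 35116 promoters of the table, and GCGTG in 46.3%, against 36.5%. At least 1 of the cores stood in 65.9% of the 41, against 48.4% of all. The longer CACGTG, which contains ACGTG on both strands, was found in 12.2% of the 41 and 7.26% of all. The 41 were 1 entry per gene, whereas the 35116 were all entries of the table, and the sets were not matched for GC content or gene type. Both cores contain the pair CG, and the part of GC content in these shares was not tested. A match is a description of letters and not a binding site.

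The sequences below are the 5 matched promoters of the 9 genes called in the same direction in both sets of lines. That of LDHA is added, as it held the most ACGTG cores with each CACGTG counted on both strands. Its 5 cores therefore lie in fewer marked stretches, and PGK1 held 3 cores with no CACGTG. The other 4 of the 9, SLC2A3, PFKFB2, SLC16A1 and NDRG1, had no entry. They are HK2 (chr2:74833877-74834176, plus strand, 2 ACGTG and 1 GCGTG), PFKFB3 (chr10:6144671-6144970, plus strand, 1 GCGTG), EGLN1 (chr1:231422238-231422537, minus strand, 1 ACGTG), ADM (chr11:10304823-10305122, plus strand, 1 GCGTG), P4HA2 (chr5:132227042-132227341, minus strand, neither core) and LDHA (chr11:18394313-18394612, plus strand, 5 ACGTG and 1 GCGTG). They are written 5′ to 3′ on the strand of the gene, with capitals where a core or its reverse complement lies, which is CACGT for the first core and CACGC for the second.
HK2: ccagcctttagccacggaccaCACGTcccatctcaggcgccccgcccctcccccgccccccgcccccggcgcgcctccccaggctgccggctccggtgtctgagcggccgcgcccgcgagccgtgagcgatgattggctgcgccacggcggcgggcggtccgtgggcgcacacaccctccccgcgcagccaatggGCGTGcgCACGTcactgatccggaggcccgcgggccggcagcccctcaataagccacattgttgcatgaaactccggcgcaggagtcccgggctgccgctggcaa
PFKFB3: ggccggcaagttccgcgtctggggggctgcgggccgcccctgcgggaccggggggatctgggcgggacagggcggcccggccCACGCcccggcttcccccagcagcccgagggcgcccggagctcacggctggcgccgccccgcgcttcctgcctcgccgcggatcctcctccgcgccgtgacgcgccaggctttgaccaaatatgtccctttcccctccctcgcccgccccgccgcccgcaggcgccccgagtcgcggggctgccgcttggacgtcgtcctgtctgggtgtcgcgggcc
EGLN1: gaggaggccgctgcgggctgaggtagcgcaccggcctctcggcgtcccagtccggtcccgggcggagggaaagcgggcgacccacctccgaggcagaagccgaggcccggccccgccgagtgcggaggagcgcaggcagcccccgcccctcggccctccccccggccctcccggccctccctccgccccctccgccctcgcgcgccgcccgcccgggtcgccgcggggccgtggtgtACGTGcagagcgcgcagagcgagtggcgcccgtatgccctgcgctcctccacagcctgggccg
ADM: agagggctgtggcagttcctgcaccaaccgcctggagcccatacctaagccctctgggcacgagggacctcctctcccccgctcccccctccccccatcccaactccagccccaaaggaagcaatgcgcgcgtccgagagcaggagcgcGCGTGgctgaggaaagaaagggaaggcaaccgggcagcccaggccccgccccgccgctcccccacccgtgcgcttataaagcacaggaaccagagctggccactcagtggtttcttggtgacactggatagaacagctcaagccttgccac
P4HA2: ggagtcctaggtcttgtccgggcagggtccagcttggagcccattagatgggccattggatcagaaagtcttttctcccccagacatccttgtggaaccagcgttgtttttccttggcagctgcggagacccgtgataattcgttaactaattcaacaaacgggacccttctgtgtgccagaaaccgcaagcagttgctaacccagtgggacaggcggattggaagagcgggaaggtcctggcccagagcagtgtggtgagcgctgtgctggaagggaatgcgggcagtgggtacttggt
LDHA: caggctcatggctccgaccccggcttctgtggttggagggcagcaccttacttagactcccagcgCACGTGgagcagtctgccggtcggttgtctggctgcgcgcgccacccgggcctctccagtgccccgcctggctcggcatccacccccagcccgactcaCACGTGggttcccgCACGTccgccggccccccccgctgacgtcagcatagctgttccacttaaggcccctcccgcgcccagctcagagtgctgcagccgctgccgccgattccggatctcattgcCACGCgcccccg

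At rest, in the NTC lines with DMSO, transcripts of lower glycolysis and of lactate dehydrogenase led. Per kilobase of exon, GAPDH averaged 724 ± 162 CPM (SD, n = 4), LDHB 602 ± 9.55, LDHA 398 ± 9.74, PGAM1 257 ± 25.2, ENO1 216 ± 35.0, TPI1 202 ± 39.5, PKM 180 ± 27.7 and PGK1 120 ± 3.39 CPM per kb. GAPDH and LDHB did not differ beyond their spread, since GAPDH ranged over 559 to 927 CPM per kb, nor did neighbours in the order PGAM1, ENO1, TPI1 and PKM, although PGAM1 (240 to 294 CPM per kb) and PKM (155 to 217 CPM per kb) did not overlap. The order depends on the length used: per kilobase of the longest transcript, LDHB (1167 ± 18.5) and GAPDH (1151 ± 258) changed places, and PKM (440 to 617) lay above PGAM1 (337 to 413 CPM per kb). Next came HIF1A with 72.3 ± 12.1 CPM per kb and the lactate carrier SLC16A1 with 66.7 ± 9.05 CPM per kb, whose ranges overlap. EPAS1 had 0.564 ± 0.107 CPM per kb, so that HIF1A made up 99.2% of the alpha subunit transcripts per length. Abundant enzymes such as GAPDH have processed pseudogenes, and 25 of the 46 genes overlap an annotated gene on the other strand, among them P4HA2 (P4HA2-AS1), SLC16A1 (SLC16A1-AS1), HIF1A (HIF1A-AS1) and PFKFB2 (YOD1). Whether counting used the strand is not given in the sources used here, so these levels are uncertain by reads shared with copies or partners.

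**Figure D2:**
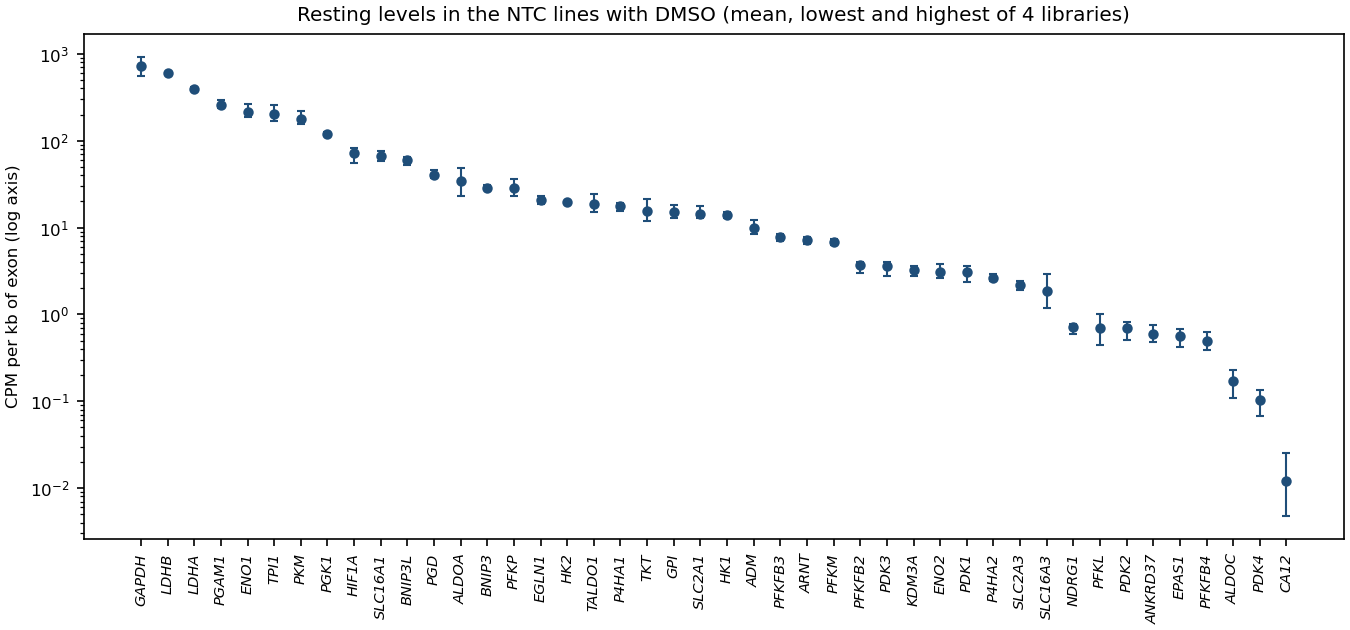
Mean level of each gene in the 4 NTC libraries with DMSO, in CPM per kilobase of exon on a log axis, with bars to the lowest and highest library. Genes are ordered by their mean, which runs from 724 for GAPDH to 0.0121 CPM per kb for CA12; CA9 and EGLN3, at 0 in these libraries, are not drawn.

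The 8 hypoxia targets ranged at rest from 0.590 (ANKRD37) to 59.4 CPM per kb (BNIP3L) in the NTC lines with DMSO. Among the rarest of the 46 genes were CA9 and EGLN3. CA9, the carbonic anhydrase that extrudes acid from hypoxic tumour cells, had a count in 3 of the 23 libraries and at most 0.0138 CPM. EGLN3, an oxygen-sensing hydroxylase itself induced by HIF, had a count in 6 of 23 libraries and at most 0.0301 CPM. A count of 0 allows up to 3 counts, or 0.0330 to 0.0451 CPM by library, and covers counting error only. Neither gene passed the filter on low counts, which left 44 of the 46 tested, and the carbonic anhydrase CA12 passed at 0.0134 to 0.187 CPM.

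Nutlin-3a moved 18 of the 44 tested genes in the PURPL guide lines and 10 in the NTC lines, in both directions, and 35 of the 44 stayed under 0.5 on the log2 scale in both sets (79.5%, against 74.9% of all genes tested). Genes were called with edgeR's quasi-likelihood test at a Benjamini-Hochberg adjusted p of 0.05 over all genes tested. The p-values measure the spread between the replicates of a line, which may be technical. In bulk RNA, fewer cells of a type and less RNA per cell cannot be told apart. In the PURPL guide lines 9 of the 44 genes rose and 9 fell, where 15.9% of all genes tested rose and 22.7% fell. In the NTC lines 4 of the 44 rose and 6 fell, where 8.88% of all genes rose and 15.9% fell. The calls among the 44 were about as frequent as among all genes in both sets. The median log2 fold change of the 44 was 0.02 in the guide lines, where that of all genes was -0.00, and -0.11 in the NTC lines, where that of all genes was -0.06.

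Called in both sets of lines were 9 genes, which are 50% of the 18 guide-line calls and 90% of the 10 NTC calls; over all genes tested, 3609 were called in the same direction in both, or 56.1% of the guide-line calls and 87.2% of the NTC calls. The 4 that rose were the glucose transporter SLC2A3, PFKFB2, NDRG1 and P4HA2, and the 5 that fell were HK2, PFKFB3, SLC16A1, EGLN1 and ADM. Each of the 9 moved in 1 direction in 6 of 6 lines, but they were picked by calls on the means of these same lines. ARNT, called in neither set, also rose in 6 of 6 lines (log2 0.01 to 0.21). The sets share no library, but both came from 1 fit with common scaling and 1 shared estimate of the spread between replicates. A library of 1 set can therefore change the calls of the other.

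**Figure D3:**
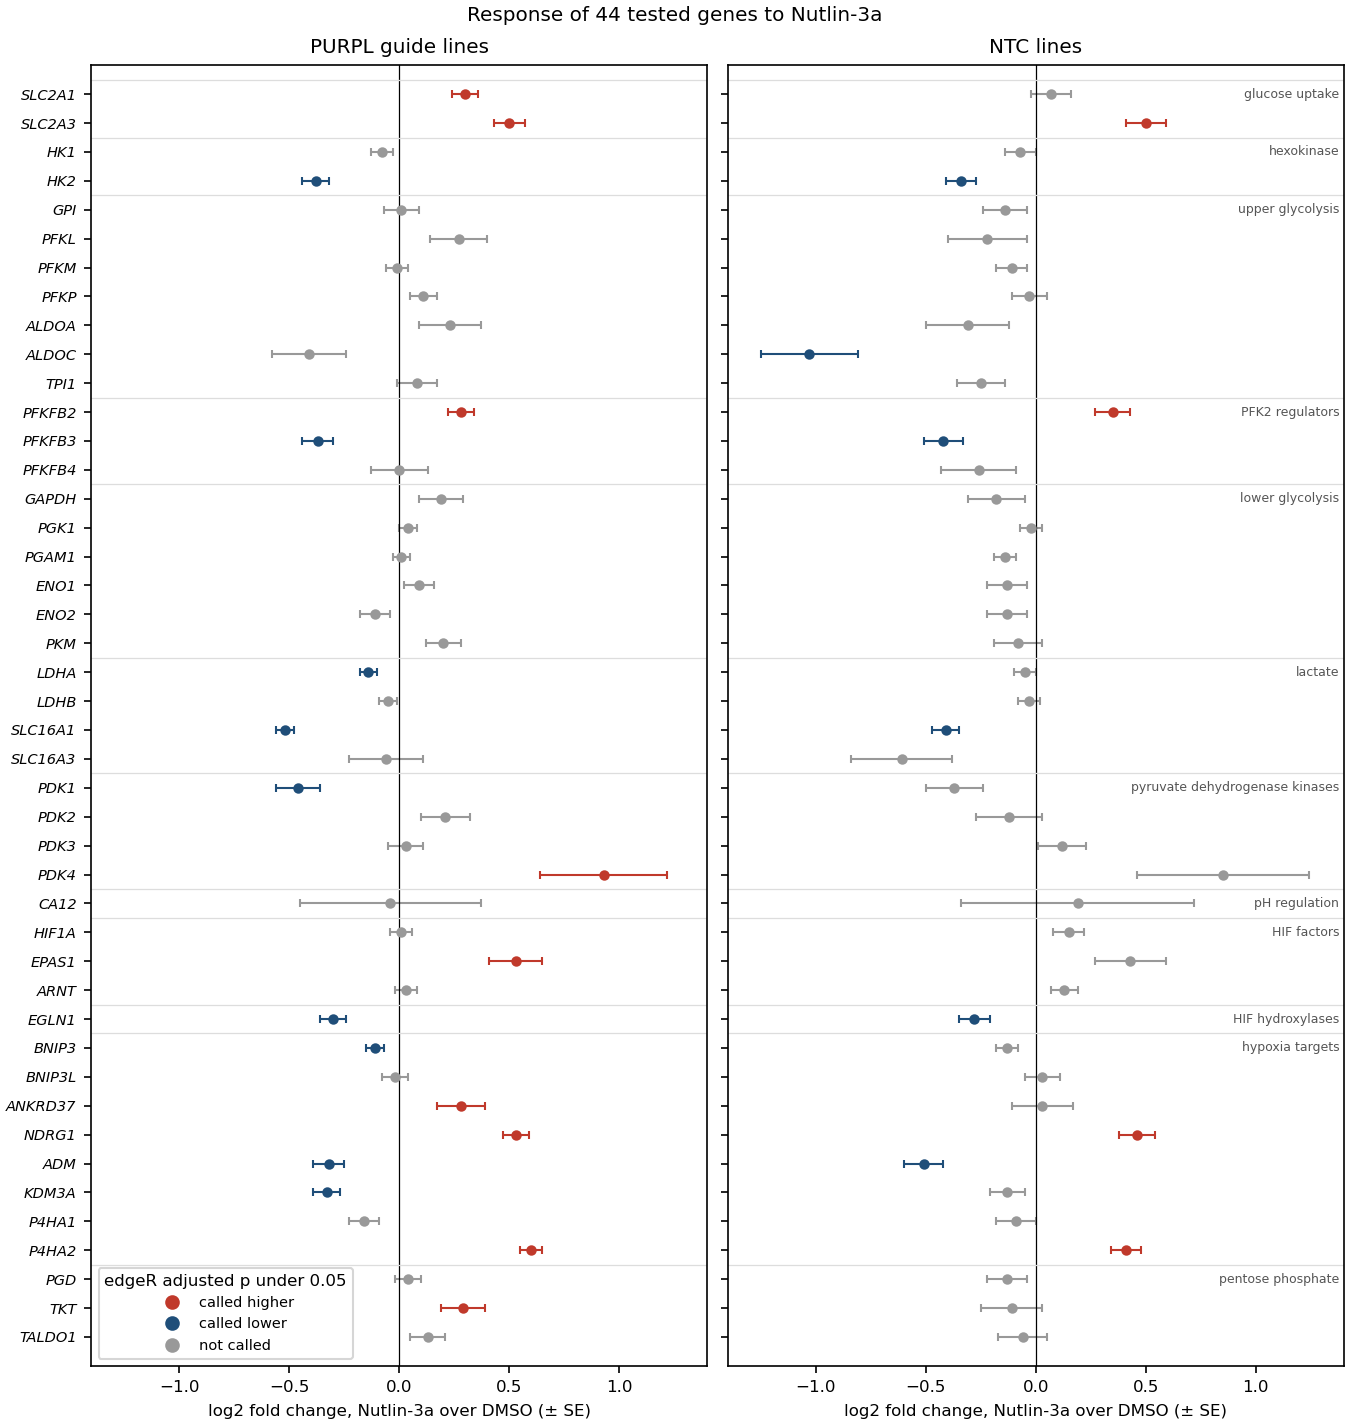
Log2 fold change of Nutlin-3a over DMSO (horizontal axis, points with SE bars) for the 44 tested genes, in the PURPL guide lines (left) and the NTC lines (right), ordered by role. Red points were called higher and blue points lower; 9 and 9 were called in the guide lines and 4 and 6 in the NTC lines, and the estimates run over -0.52 to 0.93 and -1.03 to 0.85.

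Of the glucose transporters, SLC2A3 (GLUT3, the high-affinity carrier) had 16.4, 18.5 and 21.5 CPM in guide lines with Nutlin-3a, against 11.3, 12.9 and 14.5 CPM with DMSO (lowest, median, highest). In the NTC lines it had 18.9, 18.1, 20.2 and 19.3 CPM with Nutlin-3a, against 13.7, 11.9, 15.1 and 13.6 CPM with DMSO. Every Nutlin-3a library lay above every DMSO library in both sets. The log2 fold change was 0.50 ± 0.07 (SE, adjusted p = 1.16e-05), a 1.41-fold rise, in the guide lines and 0.50 ± 0.09 (adjusted p = 0.00051) in the NTC lines, and ranged over 0.38 to 0.58 in the 6 lines. SLC2A1 (GLUT1), the main basal carrier, was the more abundant per length, at 14.4 ± 2.17 CPM per kb in NTC lines with DMSO (SD, n = 4), against 2.20 ± 0.213 CPM per kb for SLC2A3. SLC2A1 had 72.7, 80.4 and 99.8 CPM in guide lines with Nutlin-3a, against 63.1, 66.4 and 71.2 CPM with DMSO, with no overlap. Its log2 fold change there was 0.30 ± 0.06 (adjusted p = 0.00137). SLC2A1 in the NTC lines had 68.8, 71.7, 66.8 and 76.1 CPM with Nutlin-3a, against 65.5, 83.1, 61.3 and 61.9 CPM with DMSO, a log2 fold change of 0.07 ± 0.09 (adjusted p = 0.619). The highest of these DMSO values came from NTC1 replicate 3, and with the GC trend of each library removed the value was 0.18 ± 0.06 (adjusted p = 0.0235). The difference of its responses between the sets did not pass the test (0.21 ± 0.11, adjusted p = 0.612).

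At the first step of glycolysis, the hexokinase HK2, the inducible form bound to mitochondria, fell while HK1 did not pass the test. HK2 had 74.0, 87.6 and 97.3 CPM in guide lines with Nutlin-3a, against 96.7, 116 and 124 CPM with DMSO, and the overlap rests on 1 low DMSO library, sg5 replicate 1. HK2 in the NTC lines had 97.0, 94.9, 90.4 and 94.5 CPM with Nutlin-3a, against 118, 117, 119 and 123 CPM with DMSO, with no overlap. The log2 fold changes were -0.38 ± 0.06 (adjusted p = 3.28e-05) and -0.34 ± 0.07 (adjusted p = 0.0024). HK1 stood at -0.08 ± 0.05 and -0.07 ± 0.07. Per length, HK2 made up 51.8% ± 2.61 (SD, n = 7) of the pair in guide lines with Nutlin-3a, against 57.3% ± 2.45 (n = 8) with DMSO, and 54.0% ± 0.573 (n = 4) in NTC lines with Nutlin-3a, against 58.5% ± 2.34 (n = 4) with DMSO. With the longest transcript as the length, its share at rest was 48.5%, so which of the pair leads depends on that length.

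In upper glycolysis, 6 of the 7 genes (GPI, PFKL, PFKM, PFKP, ALDOA and TPI1) were called in neither set. PFKL was called higher in the guide lines with the GC trend removed (0.12 ± 0.05, adjusted p = 0.0386), with all 24 libraries (1.13 ± 0.38, adjusted p = 0.0336) and with no filter on low counts. With no filter ALDOA was also called, higher in the guide lines and lower in the NTC lines, as was TPI1, lower in the NTC lines. ALDOC, the brain-type aldolase, was the exception and a rare transcript. It had 0.245, 0.279 and 0.442 CPM in guide lines with Nutlin-3a, against 0.336, 0.406 and 0.470 CPM with DMSO, with overlap. ALDOC in the NTC lines had 0.221, 0.254, 0.324 and 0.173 CPM with Nutlin-3a, against 0.547, 0.671, 0.323 and 0.478 CPM with DMSO, where 1 low DMSO library, NTC2 replicate 1, overlapped. The log2 fold change of -1.03 ± 0.22 (adjusted p = 0.00252) in the NTC lines was the largest of the 44 in size, and that in the guide lines, -0.41 ± 0.17, did not pass (adjusted p = 0.0664), but did with the GC trend removed (-0.47 ± 0.18, adjusted p = 0.038). By line ALDOC stood at -0.70 in sg2, -0.47 in sg4, -0.43 in sg5, -0.05 in sg6, -1.36 in NTC1 and -0.69 in NTC2 (log2), and the difference between the sets did not pass either (0.63 ± 0.30, adjusted p = 0.612).

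The PFKFB enzymes, which make and break the activator of phosphofructokinase, did not move together, since PFKFB2 rose, PFKFB3 fell and PFKFB4 was not called. PFKFB2, the heart-type form, had 41.5, 49.1 and 51.5 CPM in guide lines with Nutlin-3a, against 37.7, 39.9 and 41.4 CPM with DMSO, and 50.3, 49.1, 47.8 and 44.8 CPM in NTC lines with Nutlin-3a, against 40.6, 30.9, 39.5 and 39.8 CPM with DMSO. It did not overlap in either set and rose by 0.28 ± 0.06 (log2, adjusted p = 0.00142) and 0.35 ± 0.08 (adjusted p = 0.00371). PFKFB3, the inducible form with strong kinase activity and a known HIF target, had 30.8, 34.0 and 43.6 CPM in guide lines with Nutlin-3a, against 38.6, 43.2 and 50.0 CPM with DMSO, where the overlap came from sg5 Nutlin-3a replicate 3. PFKFB3 in the NTC lines had 37.6, 33.9, 34.1 and 35.5 CPM with Nutlin-3a, against 48.2, 51.9, 43.1 and 46.5 CPM with DMSO, with no overlap. It fell by 0.37 ± 0.07 (log2, adjusted p = 0.00026) and 0.42 ± 0.09 (adjusted p = 0.00162). As a share of the family per length, PFKFB3 made up 51.9% ± 4.47 (SD, n = 7) in guide lines with Nutlin-3a, against 61.8% ± 2.74 (n = 8) with DMSO, and 53% ± 1.49 (n = 4) in NTC lines with Nutlin-3a, against 64.9% ± 3.42 (n = 4) with DMSO. PFKFB2 made up 43.5% ± 4.31 in guide lines with Nutlin-3a, against 33.8% ± 1.96 with DMSO, and 43.3% ± 1.39 in NTC lines with Nutlin-3a, against 31.0% ± 4.12 with DMSO. With all 24 libraries PFKFB2 lost its call in both sets (adjusted p = 0.178 in the guide lines and 0.163 in the NTC lines) and PFKFB3 in the NTC lines (adjusted p = 0.077).

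**Figure D4:**
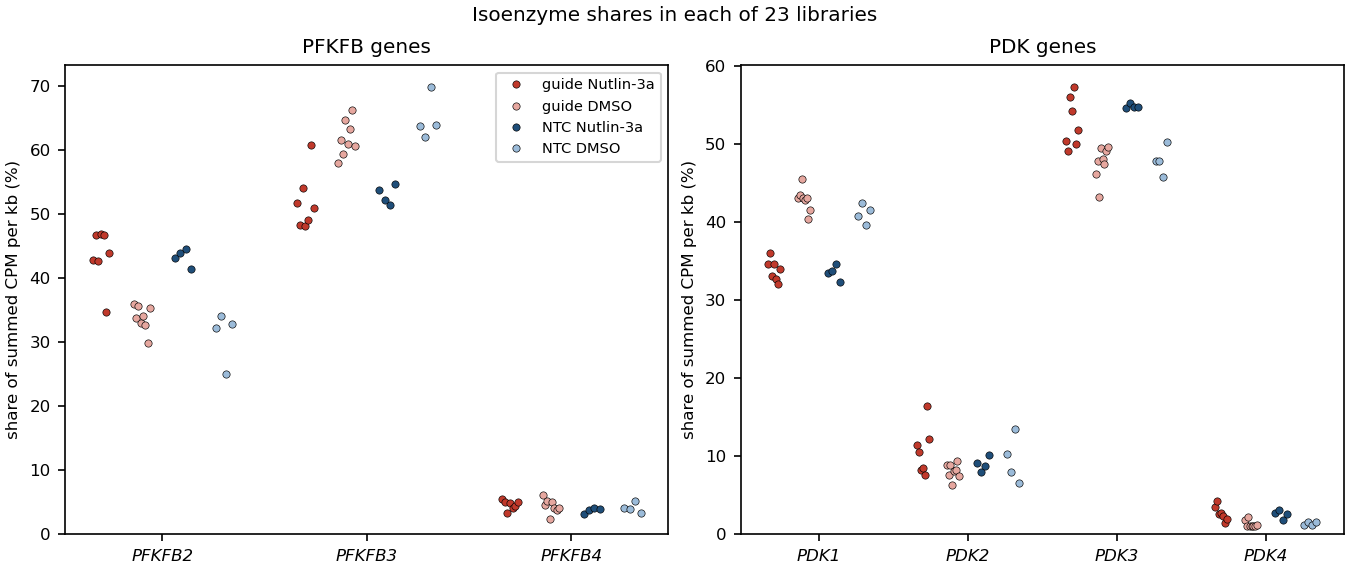
Share of each PFKFB gene (left) and each PDK gene (right) in the summed CPM per kilobase of its family, in percent, for each of the 23 libraries. Dots are libraries, coloured by set of lines and treatment; PFKFB3 averages 51.9% with Nutlin-3a and 61.8% with DMSO in the guide lines, and PDK1 33.9% and 42.9%.

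Lower glycolysis, which holds GAPDH, gave no call in the reported edgeR fit in either set. There 1 of its 6 genes was under an unadjusted p of 0.05 in each set. In the guide lines DESeq2 called PKM higher (0.23, adjusted p = 0.0109). So did edgeR with other size factors, no filter on low counts or all 24 libraries (0.47 ± 0.17, adjusted p = 0.0417). GAPDH was also called higher there with no filter. With the GC trend removed, PGK1 was called higher and ENO2 lower in the guide lines. PGAM1 was called lower in the NTC lines without NTC1 DMSO replicate 1. The 6 genes of lower glycolysis ranged over -0.11 to 0.20 (log2) in the guide lines and -0.18 to -0.02 in the NTC lines. GAPDH had 1705, 2078 and 3224 CPM in guide lines with Nutlin-3a, against 1587, 1836 and 2047 CPM with DMSO, and 1964, 1806, 1710 and 2022 CPM in NTC lines with Nutlin-3a, against 2313, 2764, 1892 and 1667 CPM with DMSO. The highest value of each set came from the libraries with the largest GC slopes, sg5 Nutlin-3a replicate 3 and NTC1 DMSO replicate 3. Its log2 fold changes were 0.19 ± 0.10 (adjusted p = 0.141) and -0.18 ± 0.13 (adjusted p = 0.341), of opposite sign. With the GC trend of each library removed they were 0.10 ± 0.03 (adjusted p = 0.0139) and -0.02 ± 0.04 (adjusted p = 0.752). PKM, pyruvate kinase, had 0.20 ± 0.08 (adjusted p = 0.0588) in the guide lines, and 0.18 ± 0.05 (adjusted p = 0.00548) with the trend removed. GAPDH, PGK1, PGAM1, ENO1, PKM, TPI1, LDHA and LDHB together took 1.09% ± 0.0991 of the TMM-scaled library size (SD, n = 7) in guide lines with Nutlin-3a, against 1.05% ± 0.0292 (n = 8) with DMSO, and 1.02% ± 0.0355 (n = 4) in NTC lines with Nutlin-3a, against 1.10% ± 0.109 (n = 4) with DMSO.

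At the lactate step stood the gene with the smallest adjusted p of the 44 in both sets, SLC16A1 (MCT1), which carries lactate and pyruvate across the plasma membrane. It had 241, 260 and 265 CPM in guide lines with Nutlin-3a, against 337, 368 and 428 CPM with DMSO, and 263, 276, 267 and 257 CPM in NTC lines with Nutlin-3a, against 322, 306, 384 and 406 CPM with DMSO. Neither set overlapped. The fall was 0.52 ± 0.04 (log2, adjusted p = 3.8e-08) in the guide lines, where the Nutlin-3a level was 0.70-fold that of DMSO, and 0.41 ± 0.06 (adjusted p = 3.93e-05) in the NTC lines. By line the log2 change was -0.45 in sg2, -0.50 in sg4, -0.55 in sg5, -0.60 in sg6, -0.22 in NTC1 and -0.59 in NTC2. The NTC call was lost with all 24 libraries (-0.37 ± 0.17, adjusted p = 0.24). LDHA, the muscle-type lactate dehydrogenase and a known HIF target, had 2206, 2412 and 2509 CPM in guide lines with Nutlin-3a, against 2487, 2652 and 2811 CPM with DMSO. That difference of -0.14 ± 0.04 (adjusted p = 0.00717) lost its call without sg5 Nutlin-3a replicate 3 (-0.08, adjusted p = 0.118) and with the GC trend removed (-0.08 ± 0.03, adjusted p = 0.0692). LDHA stood at -0.05 ± 0.05 in the NTC lines, and LDHB at -0.05 ± 0.04 and -0.03 ± 0.05. SLC16A3 (MCT4), the exporter of strongly glycolytic cells, was called in neither set, at -0.06 ± 0.17 and -0.61 ± 0.23 (adjusted p = 0.0597); with the GC trend removed it was called lower in both, at -0.20 ± 0.07 (adjusted p = 0.0355) and -0.39 ± 0.10 (adjusted p = 0.00558).

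Among the PDK genes, PDK1, the HIF-induced kinase, had 30.1, 34.9 and 44.6 CPM in guide lines with Nutlin-3a, against 41.8, 49.1 and 60.4 CPM with DMSO, and 36.4, 33.9, 39.6 and 31.6 CPM in NTC lines with Nutlin-3a, against 46.4, 35.6, 53.1 and 48.3 CPM with DMSO. It overlapped in both sets. PDK1 fell in the guide lines (log2 -0.46 ± 0.10, adjusted p = 0.00172) and stood at -0.37 ± 0.13 in the NTC lines (adjusted p = 0.0566), where it was called lower with the GC trend removed (-0.34 ± 0.12, adjusted p = 0.0362) and on sums over each line's replicates (-0.33 ± 0.08, adjusted p = 0.0158). Its share of the family per length was 33.9% ± 1.37 (SD, n = 7) in guide lines with Nutlin-3a, against 42.9% ± 1.48 (n = 8) with DMSO, and 33.6% ± 0.954 (n = 4) in NTC lines with Nutlin-3a, against 41.1% ± 1.24 (n = 4) with DMSO, with no overlap between treatments. PDK3 made up 52.7% ± 3.20 in guide lines with Nutlin-3a, against 47.7% ± 2.12 with DMSO, and 54.9% ± 0.238 in NTC lines with Nutlin-3a, against 47.9% ± 1.81 with DMSO. Its own level stood at 0.03 ± 0.08 and 0.12 ± 0.11 (log2, neither called). PDK4, the starvation-induced kinase, was rare. It had 0.421, 0.817 and 1.58 CPM in guide lines with Nutlin-3a, against 0.301, 0.366 and 0.908 CPM with DMSO, and 0.899, 0.534, 1.10 and 0.777 CPM in NTC lines with Nutlin-3a, against 0.400, 0.308, 0.602 and 0.560 CPM with DMSO. It overlapped in both sets, and its line means were higher with Nutlin-3a in 6 of 6 lines, by 0.69 to 1.34 (log2). PDK4 was called in the guide lines (0.93 ± 0.29, adjusted p = 0.0185), a call lost without sg5 Nutlin-3a replicate 1 (0.62, adjusted p = 0.0593), and not in the NTC lines (0.85 ± 0.39, adjusted p = 0.126), where line sums called it higher (0.87 ± 0.20, adjusted p = 0.0156).

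**Figure D5:**
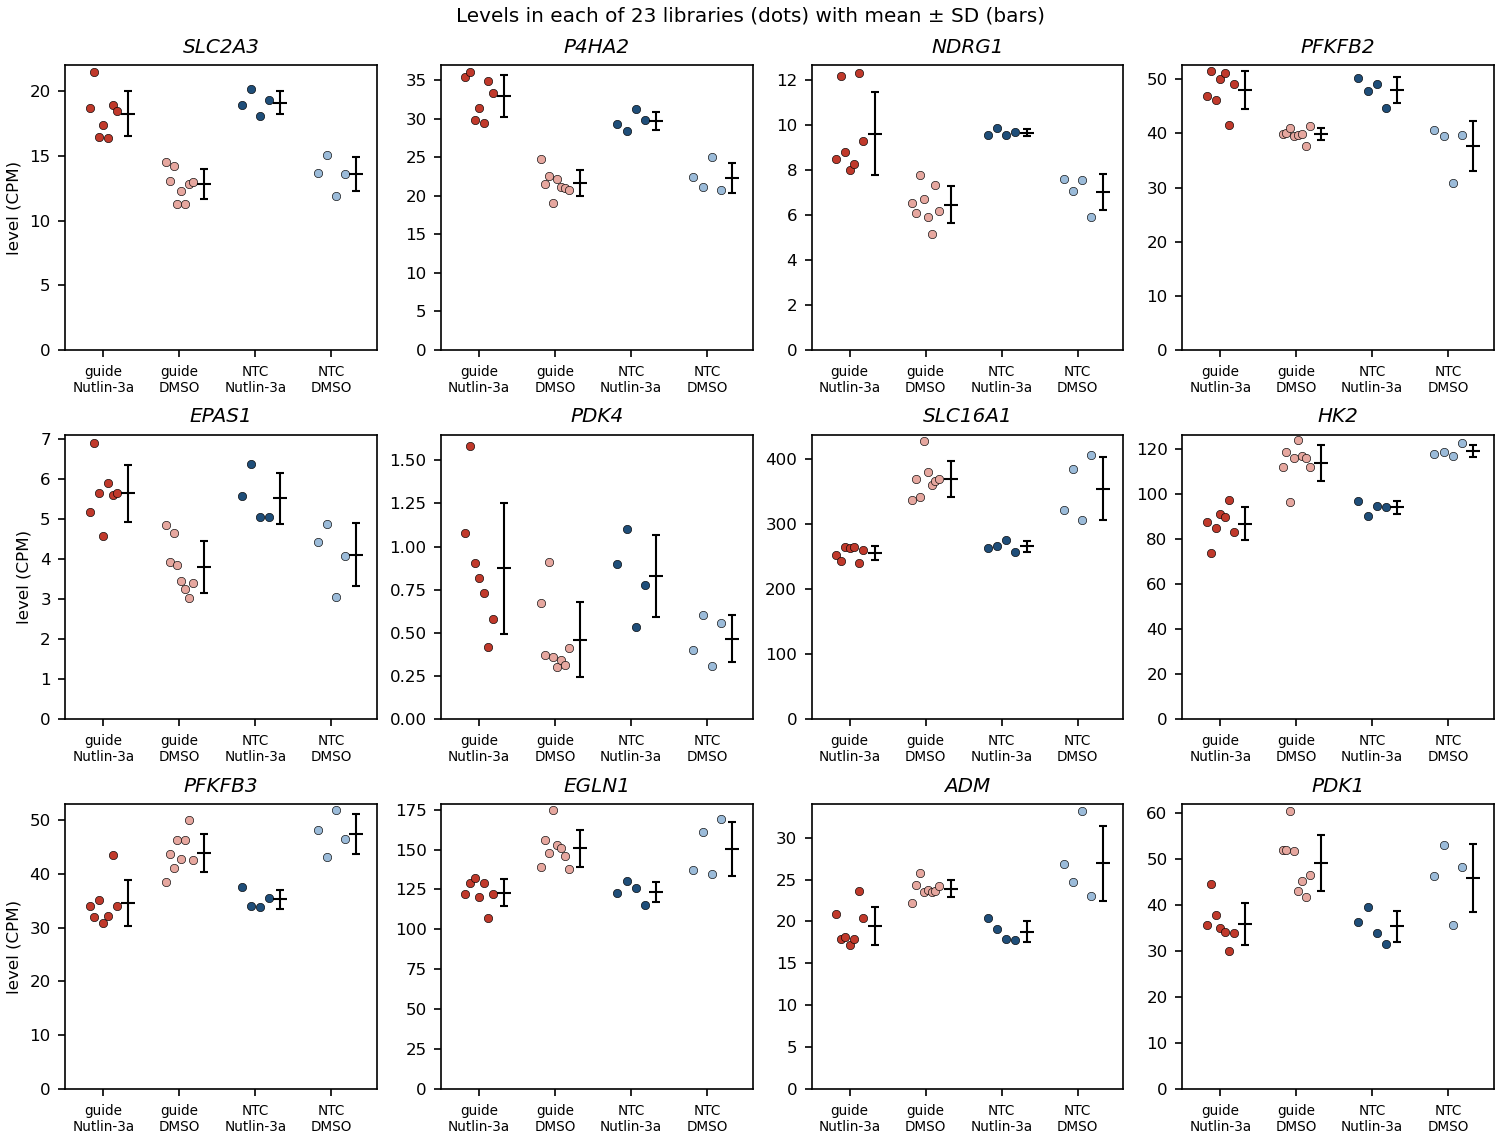
Level in CPM of 12 genes in each of the 23 libraries (dots), with mean and SD (bars), for guide lines with Nutlin-3a, guide lines with DMSO, NTC lines with Nutlin-3a and NTC lines with DMSO, left to right; every axis starts at 0. SLC16A1 averages 256 and 369 CPM in the guide lines and P4HA2 32.9 and 21.6 CPM, Nutlin-3a first.

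The oxygen-sensing genes split. HIF1A mRNA, which encodes the main alpha subunit, had 361, 408 and 413 CPM in guide lines with Nutlin-3a, against 370, 394 and 438 CPM with DMSO, and 395, 413, 422 and 409 CPM in NTC lines with Nutlin-3a, against 366, 288, 407 and 429 CPM with DMSO. It was called in neither set (0.01 ± 0.05 and 0.15 ± 0.07), and in both with the GC trend removed (0.12 ± 0.03, adjusted p = 0.00496, and 0.19 ± 0.04, adjusted p = 0.003). EPAS1 (HIF-2 alpha), the alpha subunit best known from endothelium, had 4.58, 5.66 and 6.92 CPM in guide lines with Nutlin-3a, against 3.03, 3.66 and 4.86 CPM with DMSO, and 5.59, 5.05, 6.39 and 5.07 CPM in NTC lines with Nutlin-3a, against 4.44, 3.05, 4.89 and 4.09 CPM with DMSO. The guide lines overlapped and the NTC lines did not. EPAS1 rose in the guide lines (log2 0.53 ± 0.12, adjusted p = 0.00205) and stood at 0.43 ± 0.16 in the NTC lines (adjusted p = 0.0596). Its line means were higher in 6 of 6 lines, by 0.14 in sg2 and 0.35 to 0.71 in the other 5. ARNT, the common partner, stood at 0.03 ± 0.05 and 0.13 ± 0.06. DESeq2 called HIF1A, EPAS1 and ARNT higher in the NTC lines (adjusted p = 0.0479, 0.0189 and 0.0379). With the GC trend removed, edgeR called EPAS1 and ARNT higher there too. It also called EPAS1 with other size factors and on line sums (0.47 ± 0.13, adjusted p = 0.0392), but not with all 24 libraries (adjusted p = 0.235).

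EGLN1 (PHD2), the main HIF prolyl hydroxylase, had 107, 122 and 132 CPM in guide lines with Nutlin-3a, against 138, 150 and 175 CPM with DMSO, and 123, 126, 130 and 115 CPM in NTC lines with Nutlin-3a, against 137, 135, 161 and 169 CPM with DMSO. Neither set overlapped. It fell by 0.30 ± 0.06 (log2, adjusted p = 0.00045) and 0.28 ± 0.07 (adjusted p = 0.0114). The NTC call was lost with other size factors (adjusted p = 0.0697), without NTC2 Nutlin-3a replicate 3 (adjusted p = 0.0612) and with all 24 libraries (adjusted p = 0.541).

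Of the 8 hypoxia targets, 3 rose and 3 fell in the guide lines, and 2 rose and 1 fell in the NTC lines, beside the shares over all genes given above (15.9% and 22.7% in the guide lines, 8.88% and 15.9% in the NTC lines). P4HA2, a collagen prolyl hydroxylase subunit, had 29.5, 33.3 and 36.1 CPM in guide lines with Nutlin-3a, against 19.1, 21.4 and 24.8 CPM with DMSO, and 29.3, 31.3, 28.4 and 29.8 CPM in NTC lines with Nutlin-3a, against 22.4, 25.1, 21.2 and 20.8 CPM with DMSO. Neither set overlapped, and the rise was 0.60 ± 0.05 (log2, 1.52-fold, adjusted p = 1.06e-07) and 0.41 ± 0.07 (1.33-fold, adjusted p = 0.000361), with line values of 0.35 in NTC1 to 0.70 in sg5. Its paralog P4HA1 stood at -0.16 ± 0.07 and -0.09 ± 0.09 and was called in neither set. NDRG1, a stress-induced gene known to answer both hypoxia and p53, had 8.02, 8.78 and 12.3 CPM in guide lines with Nutlin-3a, against 5.16, 6.36 and 7.76 CPM with DMSO, and 9.55, 9.55, 9.87 and 9.68 CPM in NTC lines with Nutlin-3a, against 7.59, 7.55, 7.07 and 5.90 CPM with DMSO. It too did not overlap, with log2 fold changes of 0.53 ± 0.06 (adjusted p = 1.99e-06) and 0.46 ± 0.08 (adjusted p = 0.000363), and line values of 0.34 to 0.70.

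ADM, which encodes the vasodilator peptide adrenomedullin, went the other way. It had 17.2, 18.2 and 23.6 CPM in guide lines with Nutlin-3a, against 22.2, 23.8 and 25.8 CPM with DMSO, and 20.4, 17.9, 19.1 and 17.8 CPM in NTC lines with Nutlin-3a, against 26.9, 33.2, 24.7 and 23.0 CPM with DMSO. The guide lines overlapped through sg5 Nutlin-3a replicate 3, and the NTC lines did not. ADM fell by 0.32 ± 0.07 (log2, adjusted p = 0.00148) and 0.51 ± 0.09 (adjusted p = 0.000568), with line values of -0.65 in NTC1 to -0.25 in sg5. With all 24 libraries both calls were lost, at -0.06 (adjusted p = 0.803) and -0.48 (adjusted p = 0.264). KDM3A, a histone demethylase induced by HIF, had 32.1, 36.7 and 39.3 CPM in guide lines with Nutlin-3a, against 41.9, 46.4 and 51.4 CPM with DMSO. It fell there by 0.33 ± 0.06 (adjusted p = 0.000454) with no overlap, and in the NTC lines it had 42.9, 37.1, 41.5 and 37.4 CPM with Nutlin-3a, against 42.2, 37.6, 48.8 and 45.6 CPM with DMSO, a change of -0.13 ± 0.08 (adjusted p = 0.296). ANKRD37 (0.28 ± 0.11, adjusted p = 0.0476) and the mitophagy receptor BNIP3 (-0.11 ± 0.04, adjusted p = 0.0424) were called in the guide lines by a narrow margin. ANKRD37 lost its call in 19 and BNIP3 in 21 of the 32 other settings, with adjusted p-values up to 0.106 and 0.44.

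In the pentose phosphate pathway, the NADPH-producing enzyme PGD and the transaldolase TALDO1 were called in neither set. The transketolase TKT had 127, 162 and 248 CPM in guide lines with Nutlin-3a, against 110, 132 and 144 CPM with DMSO, with overlap. Its rise of 0.29 ± 0.10 (log2, adjusted p = 0.0359) was lost in 8 of 32 other settings (adjusted p up to 0.102), 7 of which leave out 1 guide-line library, while the other uses line sums (0.30 ± 0.11, adjusted p = 0.0513). The adjusted p was highest without sg4 Nutlin-3a replicate 1 (0.22), and with all 24 libraries the value was 0.78 ± 0.26 (adjusted p = 0.0313). TKT stood at -0.11 ± 0.14 in the NTC lines (adjusted p = 0.614), with the highest DMSO value, 203 CPM, in NTC1 replicate 3.

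The wider pathway was read from lists of other genes. Of 51 other glucose and pentose genes 37 were tested; 6 rose and 13 fell in the guide lines, where 15.9% and 22.7% of all genes did, and 3 rose and 9 fell in the NTC lines, where 8.88% and 15.9% did, with medians of -0.04 and -0.13. TIGAR, a p53 target that lowers the activator of phosphofructokinase, rose by 1.75 ± 0.05 (log2, adjusted p = 9.57e-14) and 1.75 ± 0.07 (adjusted p = 1.44e-11). The glucose transporter SLC2A12 rose by 0.90 ± 0.12 and 0.82 ± 0.17, and PRPS2, which makes the nucleotide precursor PRPP, fell by 0.54 ± 0.04 and 0.51 ± 0.05. SHPK, sedoheptulose kinase, fell by 0.52 ± 0.07 and 0.62 ± 0.09. Of 40 other hypoxia genes 38 were tested, with 8 up and 8 down in the guide lines and 8 up and 7 down in the NTC lines, beside the same shares of all genes, and medians of -0.08 and -0.07. BHLHE40, a repressor known to be induced by both HIF and p53, rose by 1.72 ± 0.08 (adjusted p = 2.87e-11) and 1.57 ± 0.10 (adjusted p = 1.09e-08), while ZNF395 fell by 0.52 ± 0.06 and 0.56 ± 0.08. KDM4B and the glycogen branching enzyme GBE1 were higher, at 0.83 ± 0.09 and 0.49 ± 0.12, and 0.43 ± 0.05 and 0.50 ± 0.07, and SAP30 fell by 0.51 ± 0.06 and 0.50 ± 0.08. All of these named genes passed the test in both sets.

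Signs of RNA make-up moved with the treatment as well. The 11 mitochondrial and nuclear-retained transcripts followed for RNA quality included 6 that rose in the guide lines and 8 in the NTC lines, with none lower. Of all genes tested, 15.9% rose in the guide lines and 8.88% in the NTC lines. Mitochondrial genes took 1.10% to 1.47% of counts in Nutlin-3a libraries, against 0.810% to 1.08% in DMSO libraries. The part of this in the changes above was not tested.

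Lines with PURPL guides were next set against the NTC lines, with the line as the replicate (4 against 2, replicates summed). In DMSO none of the 44 genes was called, in either direction, where 0% of all genes rose and 0.00601% fell, namely PURPL alone. The 44 differences ranged over -0.36 to 0.12 (log2), with a median of -0.07 and a median SE of 0.10. With Nutlin-3a none was called, where 0% of all genes rose and 0.00596% fell, again PURPL. The sg2 value with Nutlin-3a rests on replicate 3 alone. The differences ranged over -0.14 to 0.32, with a median of 0.02. At an unadjusted p under 0.05 there were 0 genes in DMSO and 4 with Nutlin-3a (9.09%, against 4.76% of all genes tested), and DESeq2 called 0 of the 44 in both. In DMSO the 3 smallest p-values belonged to LDHA (0.10 ± 0.05), ARNT (0.12 ± 0.07) and ADM (-0.18 ± 0.10), each with an adjusted p of 0.825.

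The 4 were KDM3A, SLC2A1, PFKFB4 and HK2. KDM3A stood at -0.14 ± 0.04 (guide lines over NTC lines, adjusted p = 0.828) and HK2 at -0.12 ± 0.05 (adjusted p = 0.828). SLC2A1 was at 0.19 ± 0.06 (adjusted p = 0.828) and PFKFB4, a further kinase-phosphatase of the PFKFB family, at 0.29 ± 0.11 (adjusted p = 0.828). PFKFB4 had 2.12, 3.19 and 3.57 CPM in guide lines with Nutlin-3a, against 2.24, 2.67, 2.47 and 2.53 CPM in NTC lines with Nutlin-3a, so the sets overlapped.

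The DMSO result depended on which NTC line was present. Without NTC2, so that NTC1 was the only control line, 10 of the 44 were called higher and 17 lower in guide lines and 6328 genes in all, against 0 of the 44 and 8 genes without NTC1. The 17 included GAPDH, ENO1, PKM, TPI1, ALDOA and TKT, and the 10 HIF1A, SLC16A1, PDK1 and EGLN1. In NTC1 with DMSO, replicate 3 is the library with a GC slope of 0.29. With the GC trend removed as well, leaving out NTC2 called 1 higher (ARNT), 4 lower (ALDOA, ANKRD37, ENO1 and TKT) and 3138 genes in all. The single control line is then assumed to vary like the guide lines. These counts stand beside totals and not shares of all genes, so they show only that the result hung on the control line.

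Whether the response to Nutlin-3a itself differed was tested on 12 line sums with a term for each line. None of the 44 was called, where 0% of all genes were higher and 0% lower. The differences, guide lines minus NTC lines, ranged over -0.23 to 0.63 (log2), with a median of 0.06, where that of all genes was -0.01. KDM3A (-0.23 ± 0.09) and ALDOA (0.53 ± 0.23) were under an unadjusted p of 0.05, with an adjusted p of 0.612 each, or 4.55% of the 44 where 5.81% of all genes were; DESeq2 called none of the 44. ALDOC had the next smallest p, and the 7 genes of upper glycolysis had differences of 0.08 to 0.63. In NTC1, the ALDOA level with Nutlin-3a was 110 and 105 CPM, against 140 and 192 CPM with DMSO, and the second DMSO value is the library of high GC slope. Leaving out line NTC2 again left NTC1 as the only control line, and the calls depended on this too. Leaving out replicate 3 of every line also takes out line sg2 and leaves 3 guide lines. That fit called 13 higher and 1 lower, KDM3A (2125 genes in all). Among the 13 were GAPDH, ENO1, PKM, TPI1, P4HA2 and TKT. With the GC trend removed as well, it called 8 higher and 3 lower (787 genes in all). These counts stand beside totals and not shares of all genes, and show only how far the result depended on the libraries used.

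Across the 6 lines in DMSO, without regard to the guide, edgeR's F test called none of the 44, where 0.0659% of all genes were called. At an unadjusted p under 0.05 were 5 (11.4%, against 12.9% of all genes), namely SLC16A1, NDRG1, PFKP, HIF1A and PFKL. SLC16A1 (adjusted p = 0.382) had 337 and 380 CPM in sg2, 370 and 360 CPM in sg4, 341 and 367 CPM in sg5, 428 and 369 CPM in sg6, 322 and 306 CPM in NTC1, and 384 and 406 CPM in NTC2. Both NTC1 values were the lowest of the 12, and DESeq2 called SLC16A1. NDRG1 (adjusted p = 0.382) had 6.54 and 5.92 CPM in sg2, 6.10 and 5.16 CPM in sg4, 7.76 and 7.33 CPM in sg5, 6.72 and 6.17 CPM in sg6, 7.59 and 7.55 CPM in NTC1, and 7.07 and 5.90 CPM in NTC2. Lines sg5 and NTC1 held the highest values. PFKP, the platelet-type phosphofructokinase (adjusted p = 0.382), had its highest values in NTC1, at 148 and 174 CPM, where the other 10 libraries held 111 to 135 CPM. In the model of single libraries, leaving out NTC1 DMSO replicate 1 called HIF1A alone of the 44 and 743 genes in all.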

How the data were processed

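RNA of 24 libraries of SKHEP1 CRISPRi lines was extracted with RNeasy columns and made into libraries with the TruSeq Stranded mRNA kit, as the labels' protocols state. Expected counts per gene make up the deposited table; cutadapt, STAR, RSEM and DESeq2 and the build hg38 are named in the submitters' processing notes, with no roles or versions. The estimated counts were deposited as gene rows with GENCODE-style IDs; 5.6% to 7.16% of values were not whole and were rounded. The 45 pseudoautosomal Y rows (0.0222% of counts) were added to their X partners, which left 58825 genes. GENCODE 29 gave symbols, lengths and GC content for 58552 IDs. Library totals were 66.4 to 92.1 times 1e6 counts (median 74.2).

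R 4.3.3 with edgeR 4.0.16 was used: TMM factors, filterByExpr with a minimum count of 10, and robust quasi-likelihood F tests, adjusted over all genes and called at 0.05. Responses to Nutlin-3a came from 12 group means over 23 libraries. Guide comparisons used sums over each line's replicates, and their difference used 12 line sums with a line term. CPM values are counts per 1e6 of the TMM-scaled library size. Levels per length divide CPM by the union of a gene's exons. Scripts were tested on simulated data. DESeq2 1.42.0, other size factors, no filter, all 24 libraries, removal of each library's GC trend, a replicate term, sums over each line's replicates and leaving out libraries or lines were the alternatives; leaving out both libraries of next largest GC slope, and joining the GC correction to the left-out line or replicate, were chosen after seeing the data. Counts with the GC trend removed are an adjustment made here. The genes, lists and tests were chosen with earlier results of these data known. Named genes were the 46, with values by line where a call reached 0.5 on the log2 scale, the 3 smallest p-values where a comparison gave no such call, and up to 4 genes by p of each other list. The HepG2 and long-read data of the series were not analysed here.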

Additional observations from a re-analysis of the deposited data

Results flagged for a closer look

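Within groups of 4 to 8 libraries, a gene was picked out where its highest or lowest library lay far from the rest by Dixon's criterion. This was so in 12 of 176 groups (6.82%), and chance picks about 1 in 20. In guide lines with Nutlin-3a, sg5 replicate 3 was the highest for HK1 (102 CPM, next 84.6), PFKL (11.4 CPM, next 7.11), PFKFB3 (43.6 CPM, next 35.2) and SLC16A3 (28.1 CPM, next 14.2), and the lowest for BNIP3L (210 CPM, next 255). In guide lines with DMSO, sg6 replicate 1, the library with the lowest GC slope, was the lowest for PFKM (41.5 CPM, next 46.9) and PGD (101 CPM, next 116) and the highest for SLC16A1 (428 CPM, next 380) and HIF1A (438 CPM, next 401), while sg5 replicate 1 was the lowest for HK2 (96.7 CPM, next 112). In the NTC lines, NTC1 Nutlin-3a replicate 1 was the lowest for LDHA (2329 CPM, next 2415) and NTC1 DMSO replicate 3 the lowest for PFKFB2 (30.9 CPM, next 39.5).

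The library left out of the fits, sg2 Nutlin-3a replicate 1, lay above each of the other 23 for 23 of the 44 tested genes and below each for 12. It was over 3-fold above the next highest library for PFKL (100 CPM, next 11.4), ALDOA (811 CPM, next 223), SLC16A3 (170 CPM, next 28.1) and TKT (856 CPM, next 248).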

How the results depend on the processing

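No called gene reversed its direction under any alternative tried. In the NTC lines, genes called higher numbered 7 with no filter, 8 with the GC trend removed, 10 with the replicate block and the GC trend removed and 7 with DESeq2 (4 as reported), and genes called lower 10 with no filter and 2 with all 24 libraries (6 as reported), where 1343 genes were called in all. In the guide lines 14 were higher and 11 lower with the GC trend removed, and 16 higher and 11 lower with the replicate block as well. Calls over all genes varied with the setting too. Over the 32 settings they numbered 1343 to 5711 in the NTC lines (4137 as reported) and 5603 to 8067 in the guide lines (6431 as reported). These totals are not shares of all genes in the same setting. The counts therefore show only how far the calls depended on the setting. Whether the genes described here gained calls beyond all genes was not tested. Leaving out 1 library gave 4 to 8 higher and 5 to 8 lower in the NTC lines (3105 to 4794 genes in all), with 7 higher without NTC1 DMSO replicate 1 and 8 without sg5 Nutlin-3a replicate 3, and 7 to 13 higher and 7 to 10 lower in the guide lines (5657 to 7140 in all). Correlations of the pairs' deviations were 0.0873, 0.0156, 0.045, 0.318 and 0.179 in NTC1, NTC2, sg4, sg5 and sg6. The planned cut-off for pairing, which every line had to pass, was met in sg5 and sg6 only. Pairing by replicate number was therefore not shown, and not excluded either. With the replicate block 9 rose and 9 fell in the guide lines and 6 rose and 8 fell in the NTC lines. The comparison of replicate 3 with replicate 1, planned only for paired numbers, was not run.

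For guide lines against NTC lines in DMSO, genes called in all were 2 with no filter, 2 with the GC trend removed, 7 with the replicate block, 19 with the block and the GC trend removed and 11 with DESeq2, against 1 as reported. Leaving out a line or replicate number gave 0 to 10 of the 44 higher, 0 to 17 lower and 0 to 6328 genes in all, and without NTC2 and the GC trend 1, 4 and 3138. With Nutlin-3a they were 2 with other size factors, 6 with no filter, 0 with all 24 libraries, 2 with the GC trend removed, 8 with the replicate block, 10 with the block and the GC trend removed and 19 with DESeq2; leaving out gave 0 of the 44 and 1 to 3 genes in all. For the difference of the responses they were 5 with no filter, 1 with the GC trend removed and 5 with DESeq2, and leaving out gave 0 to 13 higher, 0 to 4 lower and 0 to 2936 in all; with the GC trend removed, 1 higher, 2 lower and 1741 in all without NTC2, and 8, 3 and 787 without replicate 3 (and so without sg2). Among the 6 lines, 12 of the 44 were called with no filter and 1 with DESeq2, and genes in all were 2697 with no filter, 3 with all 24 libraries, 25 with the GC trend removed, 21 with the replicate block, 81 with both, 191 with DESeq2 and 21 without the 2 libraries of next largest GC slope, with 0 to 1 and 6 to 743 on leaving out 1 library. The causes were not tested.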
